A study of Mus musculus with 12 samples.

Results

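The comparison described here set dN-VEGF cells against wild type NIH3T3 cells, both kept in normoxia, across all genes of an RNA-seq count table. It used 6 of the 12 samples of the series: the wild type normoxia samples 1 to 3 and the dN-VEGF normoxia samples 1 to 3. The other 6 samples were the same lines after hypoxia and entered only where stated. NIH3T3 is an established line of mouse embryonic fibroblasts. The dN-VEGF line carries a biallelic deletion of the N-VEGF coding stretch of Vegfa. Per the study's methods it was made with Cas9, a pair of guides and donor cassettes; edited clones were picked, the cassettes were removed with a retrovirus encoding the recombinase VCre, and non-fluorescent cells were sorted. The wild type samples were the parent line, which did not go through the cloning, so the deletion and the history of the clone cannot be told apart here. Which clone gave which of the 3 dN-VEGF samples is not stated in the sources used here, nor is it stated that samples of a line were separate cultures, so the p-values measure the spread between these samples, which may be technical. The study says in general that experiments were repeated at least 3 times in triplicate, unless stated otherwise. How that applies to these RNA samples is not said.

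VEGF-A is the main growth factor for blood vessels and is induced when cells lack oxygen. A long form of the protein, L-VEGF, starts at an upstream codon and is cut to give a secreted VEGF and an N-terminal piece, N-VEGF. The question asked of these samples was which genes differed between the lines before any oxygen stress, and which of those differences held once the samples numbered 2 were set aside.

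The guides mark where the gene was cut, so their target sites are shown first, 5′ to 3′, with the PAM in capitals. Both lie in exon 1 of the transcript Vegfa-202 (GRCm38, chromosome 17, minus strand of the genome for the gene).
gRNA1: tcggcagcccgccggcgaggAGG
gRNA4: ctcgcagtccgagccggagaGGG
The protospacer of gRNA1 matched the plus strand at chr17:46031824-46031843 and that of gRNA4 the minus strand at chr17:46031399-46031418. If Cas9 cut 3 bases before each PAM, 439 bases lie between the cuts, which is 12.7% of the 3451 bases of Vegfa-202. The ends of the deletion itself were set by the donor cassettes, whose sequence was not used here, so the deleted stretch may be longer than that. Both sites are in the annotated coding part of the long form, while the gRNA4 site is untranslated in Vegfa-201.

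Vegfa itself (chr17:46016993-46032369) was counted over the whole gene, and the reads of the deleted stretch cannot be separated from the rest, so its count does not check the deletion. In CPM, which are counts per 1000000 after TMM scaling of the library sizes, the wild type samples 1, 2 and 3 had 86.2, 39.4 and 82.6 and the dN-VEGF samples 37.3, 34.2 and 35.5. The dN-VEGF samples lay below all wild type samples, but wild type sample 2 was nearer to dN-VEGF than to its own line. The fitted log2 difference, dN-VEGF minus wild type, was -0.96 ± 0.22 (SE, n = 3 and 3; edgeR adjusted p = 0.039), just under 2-fold. Without the samples numbered 2 it was -1.20 ± 0.06 (n = 2 and 2, edgeR adjusted p = 1e-11). That fit leaves out the normoxia samples that varied most, which makes its p-values small, here and below. In the 6 normoxia samples fitted alone the difference was -0.97 ± 0.32 (edgeR adjusted p = 0.4). Of the 10 VEGF ligands and receptors listed, 7 could be tested and 0 were called with all samples in edgeR; 3 had an unadjusted p under 0.05, DESeq2 called 0, and limma voom with sample weights called 1 lower. Vegfb, a ligand of Flt1, stood at -0.35 (adjusted p = 0.07), and the coreceptor Nrp1 at -0.43 (adjusted p = 0.053). The receptor Kdr had 0.0228 CPM in 1 wild type sample and 0 in the other 5.

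The samples held 36251428 to 43056690 counts on genes, with 1.01 to 1.21 as TMM factors. Fibroblast markers were abundant in all 6 samples, their sum being 19640 to 28987 CPM in wild type and 23411 to 24728 CPM in dN-VEGF. Other cell types were checked too. The sums reached at most 5.29 CPM for 6 endothelial, 13.4 CPM for 6 leukocyte, 2.44 CPM for 6 epithelial and 0.616 CPM for 6 adipocyte markers, with Epcam, Adipoq and Lep at 0 in all 6 samples. The 6 smooth muscle or pericyte markers summed to 207 to 302 CPM, nearly all from 1 gene (at most 300.4 CPM), with Kcnj8 at 0. The highest sums were 2.11 CPM for 4 skeletal muscle markers (Myod1 at 0), 0.16 CPM for 5 germ cell markers and 0.0711 CPM for 4 embryonic stem cell markers. Of the adipocyte markers 1 was called lower in dN-VEGF, Fabp4, on 61 and 7 summed counts. The samples numbered 2 stood apart. The log2 CPM of wild type samples 1 and 3 correlated at 0.996 across genes, but wild type sample 2 correlated with them at only 0.956 and 0.957, below its 0.984 with dN-VEGF sample 2. The dN-VEGF samples 1 and 3 correlated at 0.996, and sample 2 with each of them at 0.986. The cause of this was not tested. Counts of called genes and the larger shifts of single genes are therefore given with and without these samples.

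With all samples, 319 of 14724 tested genes (2.17%) differed between the lines by at least 2-fold at an edgeR adjusted p below 0.05; such genes are named "called" here. Of these, 91 (0.618% of tested genes) were higher and 228 (1.55%) lower in dN-VEGF. The groups of 3 did not overlap for 300 of the 319, against 16.3% of all tested genes. This count rests on a spread shared with the hypoxia samples. When the 6 normoxia samples were fitted alone, 15 genes (0.108%) were called, and 1319 had an unadjusted p under 0.05. With the replicate number as a block in those 6 samples, 1 gene (0.00718%) was called, Rhox5, and 2252 had an unadjusted p under 0.05.

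Of the 319 genes, 303 (84 higher and 219 lower) were called in the same direction once wild type sample 2 and dN-VEGF sample 2 had been left out. Both fits share the samples numbered 1 and 3, so much of this overlap is built in. The median absolute log2 difference of the 303 genes was 1.86 with all samples, 2.06 without the samples numbered 2, and 1.10 between the samples numbered 2 themselves. In that pair alone, 291 of the 303 differed in the called direction and 170 (58 higher and 112 lower) by at least 2-fold; the first call used this pair, so these counts describe it and do not test it. The genes were spread over the genome, with between 1.13% (chromosome 8) and 3.11% (chromosome 18) of the tested genes of each chromosome among them, and 269 were protein coding.

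Rhox5, an X-linked homeobox gene of the testis and epididymis that most somatic cells keep silent, showed the steadiest difference. It had 4.11, 4.30 and 4.37 CPM in wild type samples 1 to 3 and 84.1, 79.9 and 87.5 CPM in dN-VEGF, means of 4.26 ± 0.136 and 83.8 ± 3.81 (SD, n = 3 each). The sample numbers made no visible difference, and the log2 difference was 4.30 ± 0.10 (edgeR adjusted p = 1.5e-09; 4.35 without the samples numbered 2). Of the 22 listed germline genes known to be silenced by DNA methylation, 3 could be tested and edgeR called 1 with all samples, Rhox5 (0.618% higher over all genes). The fit without the samples numbered 2 and DESeq2 each called 1 lower as well, and limma voom with sample weights called 2 lower. Dnmt3l, a germ-cell cofactor of the de novo DNA methyltransferases, was also higher, at 1.27, 2.35 and 1.27 CPM against 0.251, 0.906 and 0.328 CPM in wild type (log2 difference 1.73, adjusted p = 0.039). It was the one called gene of 8 DNA methylation enzymes and cofactors with all samples (0.618% higher over all genes). Without the samples numbered 2 Dnmt3l stood at 2.12, and 2 of the 8 were called higher (3.33% over all genes). Limma voom with sample weights also called 2 higher. Some called genes outside these lists went the other way. Rhox2h, Esx1, Dppa2 and Dppa4 were lower in both fits, at -3.56, -2.55, -2.63 and -4.26 without the samples numbered 2.

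Cd24a, a small sialoglycoprotein anchored to the cell surface, rose from 1.69, 2.83 and 2.004 CPM in wild type to 20.5, 12.7 and 20.8 CPM in dN-VEGF (log2 difference 3.05 ± 0.24, edgeR adjusted p = 9.7e-05). The groups were far apart, with dN-VEGF sample 2 the lowest of its line. H2-K1, a classical MHC class I heavy chain, had 6.51, 3.16 and 6.74 CPM against 22.5, 26.6 and 21.1 CPM (log2 2.09, adjusted p = 0.001); it belongs to a family of near-identical genes, so its count is uncertain. Mgp, matrix Gla protein, an inhibitor of calcification, had 17.6, 15.51 and 17.03 CPM against 61.5, 70.7 and 57.8 CPM (log2 1.92 ± 0.13, adjusted p = 3.8e-05). Both genes were at their lowest in wild type sample 2 and highest in dN-VEGF sample 2.

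Arnt2, a bHLH-PAS protein of the same family as the HIF partner ARNT, had 13.6, 10.4 and 12.7 CPM in wild type and 47.3, 30.0 and 47.4 CPM in dN-VEGF (log2 1.77 ± 0.19, edgeR adjusted p = 0.00084). Rcan2, a regulator of calcineurin, had 6.89, 4.62 and 6.95 CPM against 18.2, 20.5 and 19.14 CPM (log2 1.65 ± 0.15, adjusted p = 0.00028). The other 9 of the 15 largest higher genes with a mean of at least 5 CPM lay between 1.19 and 1.54 on the log2 scale. They were Slc16a11 (a monocarboxylate transporter), Arhgef5, Prr5l, Col12a1 (a fibril-associated collagen), Ptk2b (a kinase of the FAK family), Pet2, Enpp4, Btbd11 and Bmper (an extracellular modulator of BMP). In the fit without the samples numbered 2 the log2 differences were 3.48 for Cd24a, 1.73 for H2-K1, 1.80 for Mgp, 1.86 for Arnt2 and 1.44 for Rcan2, and those of the 9 others 1.02 to 2.11. No dN-VEGF sample of these 15 genes lay at or below a wild type sample. The groups did not overlap for 300 of the 319 called genes and 16.3% of all tested genes, so this comes largely with the call. Bmper came closest to an overlap, with 15.44 CPM in wild type sample 2 and 19.14 CPM in dN-VEGF sample 3, and its highest sample was dN-VEGF sample 2 at 40.2 CPM.

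**Figure D1:**
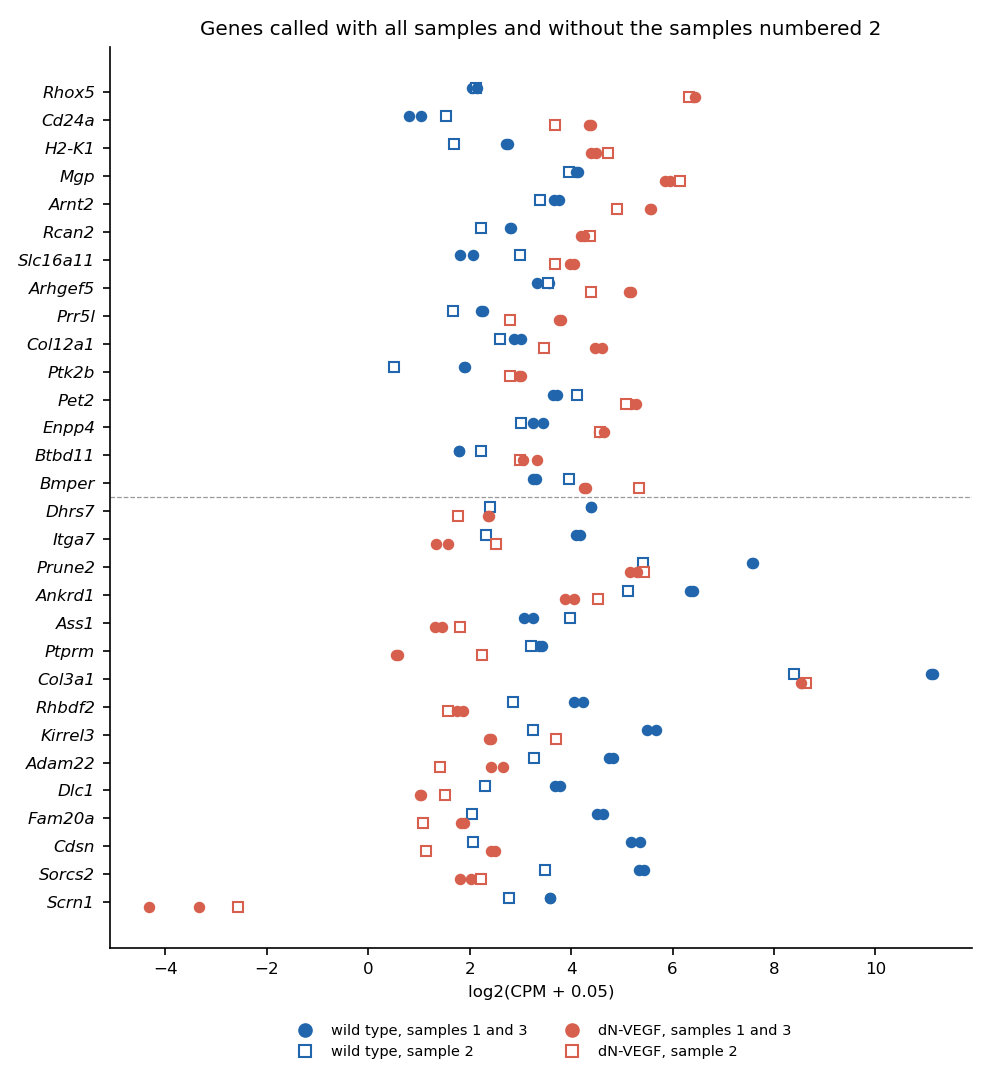
The 15 genes highest and 15 genes lowest in dN-VEGF among those called with and without the samples numbered 2 that had a mean of at least 5 CPM, ordered by log2 difference; the x axis is log2(CPM + 0.05), blue is wild type, red is dN-VEGF, and open squares are the samples numbered 2. Above the dashed line all red points lie to the right of the blue ones, while below it the open blue square often sits beside the red points, as for Col3a1, Prune2 and Cdsn.

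Among the lower genes, Scrn1 (secernin 1) was close to absent in dN-VEGF: 11.9, 6.76 and 12.002 CPM in wild type against 0, 0.118 and 0.049 CPM. Its summed counts were 1434 and 7, a ratio of 191 (95% exact counting interval 92.5 to 476, covering counting error only). Sorcs2, a sorting receptor, had 43.3, 11.1 and 40.3 CPM against 4.01, 4.64 and 3.48 CPM (log2 difference -2.96 ± 0.40, edgeR adjusted p = 0.0031). Here wild type sample 2 was the lowest of its line but still above dN-VEGF. Ass1, argininosuccinate synthase, was the one lower gene of the 15 in which wild type sample 2 was the highest, with 9.43, 15.7 and 8.32 CPM against 2.43, 3.46 and 2.70 CPM (log2 -1.96 ± 0.23, adjusted p = 0.0014). Leaving out the samples numbered 2 moved Scrn1 from -7.47 to -8.82, Sorcs2 to -3.46 and Ass1 to -1.78.

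Other lower genes rested mainly on the samples numbered 1 and 3. Col3a1, the fibrillar collagen III, had 2245, 336 and 2179 CPM in wild type and 378, 397 and 370.3 CPM in dN-VEGF. Wild type sample 2 thus lay below all dN-VEGF samples, although the gene was called (log2 -2.05 ± 0.50, edgeR adjusted p = 0.045). With the replicate number as a block in the 12 samples it was no longer called (adjusted p = 0.077), and without the samples numbered 2 its difference was -2.55. Kirrel3, an adhesion molecule of the immunoglobulin family, had 51.3, 9.45 and 45.2 CPM against 5.28, 12.98 and 5.19 CPM (log2 -2.18 ± 0.53, adjusted p = 0.045; 0.085 with the block), and its groups overlapped too. Its difference without the samples numbered 2 was -3.19. Prune2 and Itga7, a laminin-binding integrin chain, overlapped in the same way, and neither was called with the block (edgeR adjusted p = 0.056 and 0.072). With all samples and without those numbered 2, Prune2 stood at -1.85 and -2.35 and Itga7 at -1.85 and -2.69. Cdsn, corneodesmosin, had 41.2, 4.16 and 36.3 CPM against 5.30, 2.16 and 5.61 CPM, so wild type sample 2 lay between the dN-VEGF samples (log2 -2.64, adjusted p = 0.047). The remaining genes of the 15 did not overlap, although Dhrs7 came close. They were Fam20a (a secretory pathway pseudokinase), Dlc1, Adam22, Rhbdf2 (iRhom2, which brings Adam17 to maturity), Ptprm (a receptor tyrosine phosphatase), Ankrd1 (a target of YAP) and Dhrs7, with log2 differences of -2.48 to -1.79, and -2.85 to -2.02 without the samples numbered 2. Ptprm moved most, from -2.0 to -2.85.

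The 15 genes called in the 6 normoxia samples alone were picked out after their values were seen. All 15 were among the 303, none overlapped, and all differed by at least 2-fold in the called direction between the samples numbered 2. Over all tested genes 16.3% did not overlap. The fit used the samples numbered 2, so both traits come largely with the call of these 15. Higher in dN-VEGF were Rhox5, Cd24a, Mgp, Ephx2 (soluble epoxide hydrolase), Ercc6l2 (a DNA repair helicase), Pcdh10 (a protocadherin) and Sfmbt1. Lower were Scrn1, Sema3c, Mfap5, Heph, Btn1a1, Fam217b, Cfap77 and Gm11427; Cfap77 overlaps Gm13394, so its count is uncertain. Ephx2 had 0.16, 0.325 and 0.231 CPM in wild type and 4.22, 3.74 and 4.26 CPM in dN-VEGF (edgeR log2 4.08 ± 0.25, adjusted p = 1.6e-05 in the fit on 12 samples). Heph, a copper-dependent ferroxidase, had 7.37, 5.36 and 7.53 CPM against 0.366, 0.308 and 0.49 CPM (log2 -4.11 ± 0.24, adjusted p = 1.1e-05).

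Among the 319 called genes, 5 were switched nearly on or off, with at least 1 CPM in all samples of one line and under 0.25 CPM in all samples of the other; this cut was set after seeing the values. Scrn1, Sema3c, Mfap5 and Btn1a1 were near absent in dN-VEGF and Ercc6l2 in wild type. Sema3c, a secreted semaphorin that binds neuropilins, had 2.62, 2.07 and 2.504 CPM in wild type and a single count in all dN-VEGF samples together, a ratio of 312 with a 95% exact counting interval of 55.5 to 12343. Mfap5, a protein of elastic microfibrils, had 4.34, 2.62 and 3.83 CPM against 0.0646, 0.0474 and 0.0245 CPM (502 and 6 counts; ratio 78.0, interval 35.6 to 214). Ercc6l2 had 11 counts in wild type and 414 in dN-VEGF (ratio 40.3, interval 22.3 to 81.5).

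Of the 319 genes, 16 did not hold without the samples numbered 2. The direction was kept in all 15 of them that could be tested, 14 stayed at an adjusted p below 0.05 but fell under 2-fold, and 1 lost the p threshold. Among them, 3 genes had a mean of at least 5 CPM and sat close to the fold limit. Slc1a3, a glutamate transporter, had 46.1, 33.4 and 47.1 CPM against 82.7, 97.5 and 86.5 CPM in dN-VEGF (edgeR log2 1.07 with all samples, 0.87 without; adjusted p = 0.0021 and 5.4e-09). Dpysl3, a cytoskeletal protein of the collapsin response family, had 263, 335 and 268 CPM against 137, 147 and 138 CPM (log2 -1.04 and -0.94). Snhg20, a snoRNA host gene, stood at -1.0 and -0.98. In all 3 the groups were apart with the samples numbered 2 included.

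Without the samples numbered 2, 1708 of 15083 tested genes (11.3%) were called, 503 higher (3.33%) and 1205 lower (7.99%). Of these, 1405 were called only in that fit, and 155 of the 1405 had not been tested with all samples. The pair numbered 2 took no part in these 1708 calls, so it can be set beside them. It was left out with earlier results of these data known, so the counts that follow describe it and are no independent test. In that pair 865 of the 1708 genes (50.6%) differed in the called direction, 261 (15.3%) did so by at least 2-fold, and 161 (9.43%) differed by at least 2-fold in the opposite direction. Over all genes tested in that fit, 8.16% differed by at least 2-fold either way between those samples. For the 503 higher genes 253 went the same way in the pair numbered 2, and for the 1205 lower genes 612 did. Most of the 1708 differences thus did not reach 2-fold in the called direction between the samples numbered 2. The rise in calls followed wild type sample 2, since leaving out that sample alone gave 2013 calls and leaving out dN-VEGF sample 2 alone gave 320.

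**Figure D2:**
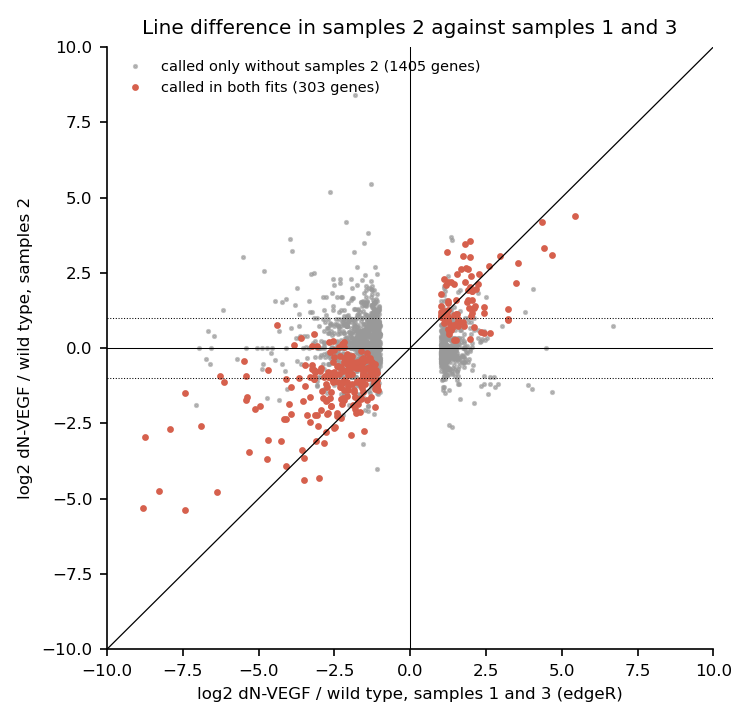
Line difference (log2 dN-VEGF over wild type) of the 1708 genes called without the samples numbered 2: the x axis is the edgeR estimate from samples 1 and 3, the y axis the difference between the samples numbered 2, the solid diagonal marks equal values and the dotted lines 2-fold. The 303 genes also called with all samples (red) lie mostly on the side of the diagonal's sign, whereas the 1405 others (grey) centre on 0 on the y axis. The call with all samples used the y axis samples, so this contrast of red and grey is largely built in.

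Of the genes called only without the samples numbered 2, the 5 largest differences in each direction at a mean of at least 5 CPM are given next. Id1, an inhibitor of bHLH factors, had 3.90, 48.6 and 4.16 CPM in wild type and 22.4, 59.1 and 21.7 CPM in dN-VEGF. Its log2 difference was 2.46 without the samples numbered 2 (edgeR adjusted p = 1.3e-11) and 0.87 with them (adjusted p = 0.61). Mcm3, a subunit of the replicative helicase, had 94.9, 514 and 85.9 CPM against 329, 541 and 322 CPM, so dN-VEGF sample 2 and wild type sample 2 were nearly equal and above the rest. The log2 difference was 1.86 without the samples numbered 2. Actg2 (an actin of smooth muscle), Ccne2 (cyclin E2) and Ung (uracil DNA glycosylase) lay between Id1 and Mcm3, at log2 2.32, 2.02 and 1.93 without the samples numbered 2 and 1.10, 0.96 and 0.46 with all samples. Ccne2 overlaps the gene Ints8, and the TruSeq v2 kit does not mark strand, so its count is less certain.

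The lower genes of this kind were Tnnt3 (a troponin T), Siglec15, C4b (complement C4), Slc14a1 (a urea transporter) and Galnt18, with log2 differences of -4.82 to -2.20 without the samples numbered 2. Tnnt3 had 20.5, 0.302 and 18.7 CPM in wild type and 0.84, 2.01 and 0.515 CPM in dN-VEGF. Wild type sample 2 was the lowest of all 6 samples, and the pair numbered 2 differed by 2.55 in the opposite direction. C4b did the same, with 18.7, 2.14 and 17.6 CPM against 3.77, 9.64 and 3.38 CPM.

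In a few genes dN-VEGF sample 2 alone was high. Ccl8, a chemokine, had 1.67, 1.37 and 1.89 CPM in wild type and 0.689, 62.1 and 0.735 CPM in dN-VEGF. Igf2, the imprinted growth factor, had 6.48, 0.0464 and 3.58 CPM against 1.25, 32.9 and 1.54 CPM. With all samples their log2 differences were 3.68 and 1.82 and missed the threshold (edgeR adjusted p = 0.15 and 0.45), and without the samples numbered 2 they were -1.31 and -1.82 (adjusted p = 1.9e-05 and 1.1e-06). Without dN-VEGF sample 2 alone they were -1.20 and -1.26, so the direction of both genes depended on that sample.

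**Figure D3:**
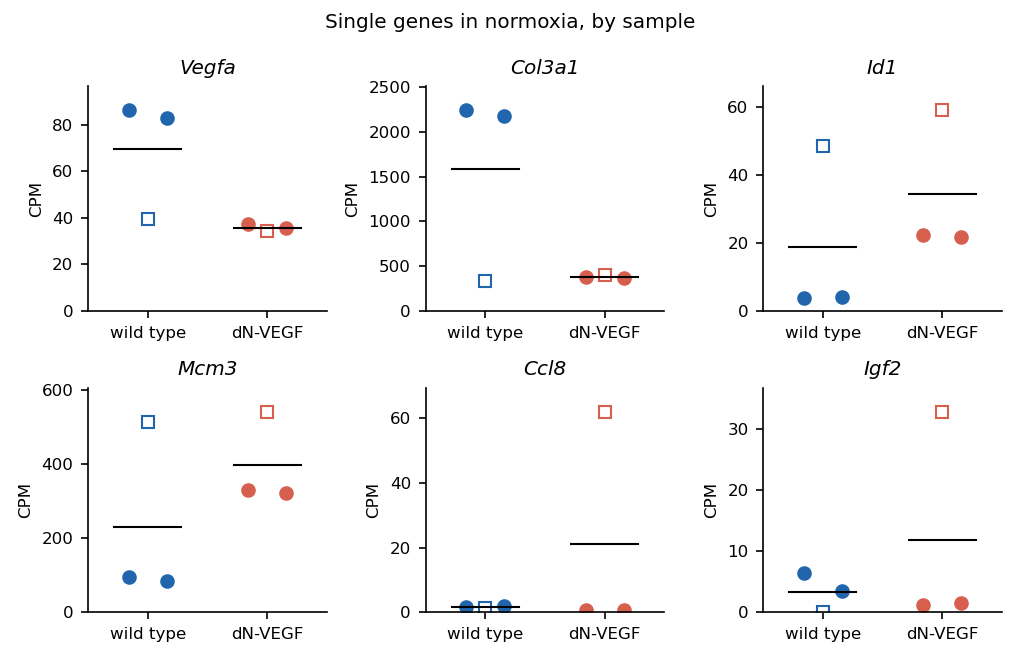
CPM (y axis, starting at 0) of 6 genes in each normoxia sample, wild type in blue and dN-VEGF in red, with open squares for the samples numbered 2 and bars for the mean of 3. For Vegfa and Col3a1 wild type sample 2 sits with dN-VEGF, for Id1 and Mcm3 both samples numbered 2 are high, and for Ccl8 and Igf2 dN-VEGF sample 2 alone is high.

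The listed gene groups gave few calls with all samples, and for several of them the samples numbered 2 decided the picture. Over all genes, 0.618% were called higher and 1.55% lower with all samples, and 3.33% and 7.99% without the samples numbered 2. The counts of list members stand beside these shares. DNA replication was the clearest case. The summed level of its 32 genes was 1066, 4624 and 1042 CPM in wild type and 2710.3, 4399 and 2709 CPM in dN-VEGF, so dN-VEGF samples 1 and 3 were higher than their wild type counterparts while the samples numbered 2 were alike and highest. With all samples edgeR called 0 of 32 genes, 0 had an unadjusted p under 0.05 and DESeq2 called 0, and the median log2 difference was 0.48 against -0.03 over all genes. Limma voom with sample weights, which gave the samples numbered 2 weights of 0.0236 and 0.121, called 23 higher. Without the samples numbered 2 edgeR also called 23 of 32 higher (3.33% over all genes) and 0 lower, all 32 having a positive difference at an adjusted p below 0.05, and the median was 1.26. Between the samples numbered 2 the median was -0.10, and 9 of the 32 genes were higher in dN-VEGF.

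The 26 mitosis genes summed to 1593, 5308 and 1623 CPM against 2941, 3221 and 3049 CPM. All samples together gave 0 calls by edgeR, 0 genes with an unadjusted p under 0.05 and 0 calls by DESeq2, and the fit without the samples numbered 2 called 5 of 26 higher (3.33% over all genes), with Ccnb1 (cyclin B1) at 1.07. In the pair numbered 2 none of the 26 genes was higher in dN-VEGF.

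Of 31 tested collagens and matrix glycoproteins, 3 were called higher (Mgp, Col12a1 and Fbln5; 0.618% over all genes) and 2 lower (Col3a1 and Col15a1; 1.55% over all genes), Col15a1 on 30 and 2 summed counts. With the replicate block Col15a1, like Col3a1, was not called (edgeR adjusted p = 0.051). All 5 held without the samples numbered 2, where 3 of the list were called higher and 4 lower. The list does not cover all such genes. Outside it Col10a1 was called higher and Col7a1 and Mfap5 lower in both fits, at 2.35, -1.15 and -6.37 without the samples numbered 2. Fbln5, fibulin 5 of elastic fibres, had 264, 222 and 249.8 CPM in wild type and 614, 449 and 591 CPM in dN-VEGF (edgeR log2 1.17, adjusted p = 0.00059). The summed level of the list was 35655, 18394 and 33588 CPM against 27690.0, 31279.5 and 27415 CPM, and its median log2 difference was 0.00 with all samples and -0.24 without those numbered 2. Of 21 tested matrix proteases and inhibitors, Mmp3 (stromelysin 1) and Adamts7 were lower with all samples (1.55% over all genes) and DESeq2 called 4 lower. In edgeR 4 were called higher and 8 lower without the samples numbered 2 (3.33% and 7.99% over all genes), and between the samples numbered 2 16 of the 21 were higher in dN-VEGF. Mmp16, outside this list, was also called lower in both fits, at -2.64 without the samples numbered 2. Mmp3 was low everywhere, with 91 summed counts in wild type, most of them in sample 2, and 4 in dN-VEGF (ratio 21.2, 95% exact counting interval 8.01 to 79.6; edgeR adjusted p = 0.045, and 0.054 with the block). Adamts7 overlaps Tbc1d2b and had 49.9, 43.6 and 44.3 CPM against 15.7, 32.2 and 15.49 CPM.

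Of 15 tested integrins, 3 were called lower in edgeR, Itga7, Itga1 and Itgb3 (1.55% over all genes), and 0 higher, DESeq2 giving the same counts and 3 genes having an unadjusted p under 0.05. The counts were again 3 lower and 0 higher without the samples numbered 2. The integrin chain Itgb6, outside this list, was also called lower in both fits, at -4.10 without the samples numbered 2. Itgb3, the beta chain of the vitronectin receptor, had 10.4, 9.03 and 9.11 CPM in wild type and 4.39, 3.72 and 4.75 CPM in dN-VEGF (edgeR log2 -1.15 ± 0.15, adjusted p = 0.0027), with no overlap in any sample. Itga1, which overlaps Pelo, stood at -1.80. Among 17 contractile genes and targets of SRF, Cnn1 (calponin) and Des (desmin) were lower with all samples, but Cnn1 fell under 2-fold without the samples numbered 2 and Des was not called with the replicate block (edgeR adjusted p = 0.057). The fit without the samples numbered 2 called Acta2, Actg2 and Myl9 higher and 1 gene, Des, lower (3.33% and 7.99% over all genes). Of 16 tested YAP and TAZ targets, edgeR called 1 with all samples, Ankrd1, and 2 higher and 3 lower without the samples numbered 2.

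Of 30 targets of the hypoxia-inducible factors, 1 was called with all samples, and 4 higher and 2 lower without the samples numbered 2. The first was Egln3, the oxygen-sensing prolyl hydroxylase PHD3, at 6.44, 7.198 and 7.71 CPM against 2.09, 5.14 and 2.11 CPM (edgeR log2 -1.19, adjusted p = 0.042; -1.75 without the samples numbered 2). The summed level of the list was 5798, 9373 and 5602 CPM in wild type and 8960.4, 8717 and 8759 CPM in dN-VEGF, so again wild type sample 2 stood with dN-VEGF. Ldha, lactate dehydrogenase A, showed this pattern with 471, 1376 and 454 CPM against 1175, 1389.9 and 1185 CPM, and was called only without the samples numbered 2 (log2 1.36, adjusted p = 9e-12).

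The immune and stress lists gave 1 or 2 calls each with all samples. Dhx58 (the RNA sensor LGP2) was lower among 25 tested interferon-stimulated genes, at log2 -1.60. Of the 25, 1 was called higher and 9 lower without the samples numbered 2 (3.33% and 7.99% over all genes), whereas between the samples numbered 2 the median difference was 0.58 and 20 of the 25 were higher in dN-VEGF. H2-M3 was lower and H2-K1 higher among 15 MHC class I genes, and Ccl9 was lower (-1.44) and Cxcl5 higher (1.04) among 20 chemokines and cytokines. Nupr1, a stress-induced chromatin protein, was lower among 24 genes of the integrated stress response, at 37.5, 17.2 and 34.9 CPM against 8.64, 9.26 and 8.72 CPM (edgeR log2 -1.75 ± 0.23, adjusted p = 0.0025; -2.05 without the samples numbered 2). Gdnf (glial cell line-derived neurotrophic factor) was lower among 25 growth factors and receptors, Egr3 higher among 20 immediate early genes, and Snrpn lower among 17 imprinted genes (-1.59, and -2.22 without the samples numbered 2). In the fit without the samples numbered 2 the calls were 1 higher and 1 lower for MHC class I, 1 and 5 for chemokines and cytokines, 0 and 3 for the stress response, 0 and 5 of 26 for growth factors, 2 and 0 for immediate early genes, and 0 and 4 for imprinted genes. The lists for cholesterol synthesis (24 tested), p53 targets (17) and the BCL2 family (15) had 0 called genes in edgeR with all samples, with 5, 4 and 2 genes at an unadjusted p under 0.05. DESeq2 called 0, 0 and 1 of them, and edgeR without the samples numbered 2 called 0, 2 and 3.

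**Figure D4:**
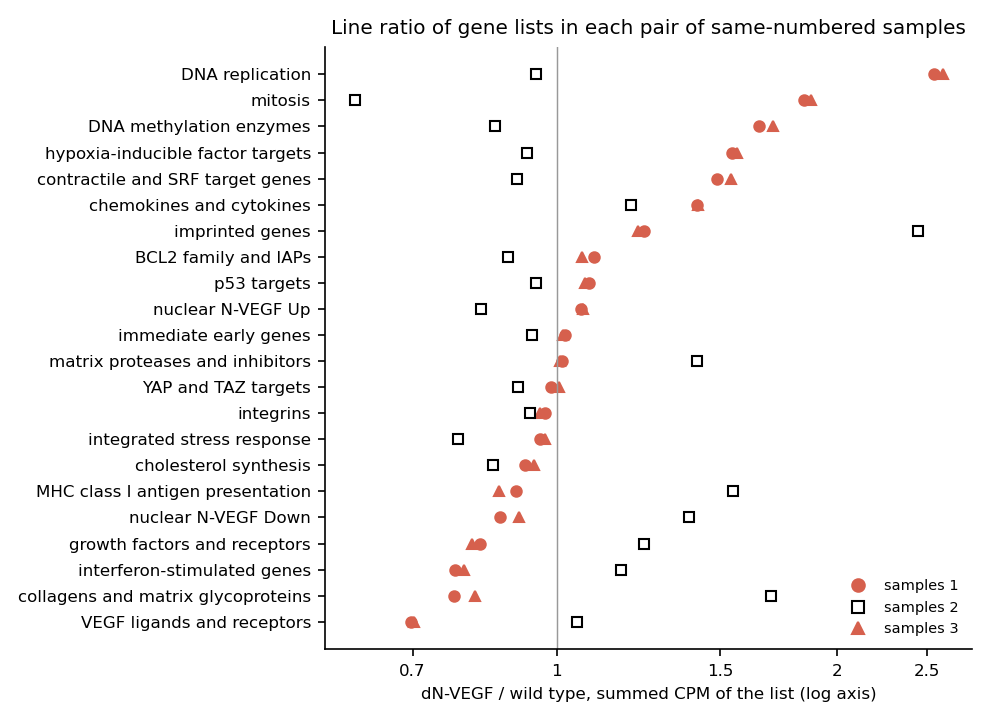
Ratio of dN-VEGF to wild type (x axis, log scale) in the summed CPM of each gene list with at least 100 CPM in all normoxia samples, for the pairs numbered 1 (circles), 2 (open squares) and 3 (triangles). Circles and triangles nearly coincide, from 2.54 and 2.60 for DNA replication to 0.70 and 0.70 for VEGF ligands and receptors, while the squares lie on the other side of 1 for many lists.

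The study also lists genes that changed when N-VEGF was sent to the nucleus in other samples, 123 raised and 32 lowered. It compared them with dN-VEGF cells in hypoxia, which is not the contrast used here. In normoxia dN-VEGF cells 0 of the 123 raised genes were called higher and 4 lower, beside 0.618% and 1.55% of all tested genes. The 4 were Heph, Prune2, Gli2 and Dpysl3, with Gli2 at -1.58, and -2.17 without the samples numbered 2. The median log2 difference of the raised genes was -0.09, against -0.03 over all genes. DESeq2 called 1 higher and 8 lower, and 49 had an unadjusted p under 0.05 in edgeR. Without the samples numbered 2 the edgeR calls were 4 higher and 11 lower of 123, beside the 3.33% and 7.99% of all tested genes. Of the 32 lowered genes 1 was called, Mgp, which was higher in dN-VEGF (0.618% over all genes). Of the 17 genes named in the study's account of transcription 0 were called by edgeR with all samples (2.17% over all genes). Of these 17, 5 had an unadjusted p under 0.05, and DESeq2 called 1. Without the samples numbered 2 Vegfa and the adhesion receptor Adgrg1 (log2 -1.33) were called, both lower.

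The hypoxia samples of the same lines are separate libraries and took no part in choosing the normoxia genes, apart from the shared spread and scaling. In hypoxia 1002 of 14724 genes (6.81%) were called between the lines. Of the 303 normoxia genes, 130 (42.9%) were called in hypoxia in the same direction and 3 in the opposite one. For the 84 higher genes 42 were called higher (2.87% over all genes) and for the 219 lower genes 88 were called lower (3.94% over all genes). The split by the samples numbered 2 mattered here. Of the 170 genes that differed by 2-fold in the called direction in that pair, 106 (62.4%) were called the same way in hypoxia, with a median log2 difference of 1.69 in the normoxia direction. Of the other 133, 24 (18.0%) were, with a median of 0.68, although the 2 sets had similar medians without the samples numbered 2 in normoxia (2.18 and 2.01). All 15 genes of the fit on normoxia samples alone were called in hypoxia in the same direction.

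The 1708 genes called without the samples numbered 2 include the 303 genes, so the values that follow largely restate the division above for those. Of the 242 tested genes that also differed by 2-fold the same way in the pair numbered 2, 125 (51.7%) were called in that direction in hypoxia and 1 in the opposite; 170 of the 242 and 106 of the 125 are genes of the preceding paragraph. Where that pair differed by less than 2-fold, 73 of 1166 (6.26%) were called in the same and 62 (5.32%) in the opposite direction. Where it differed by 2-fold the opposite way, 0 of 145 were called in the same direction in hypoxia by edgeR and 25 in the opposite direction.

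**Figure D5:**
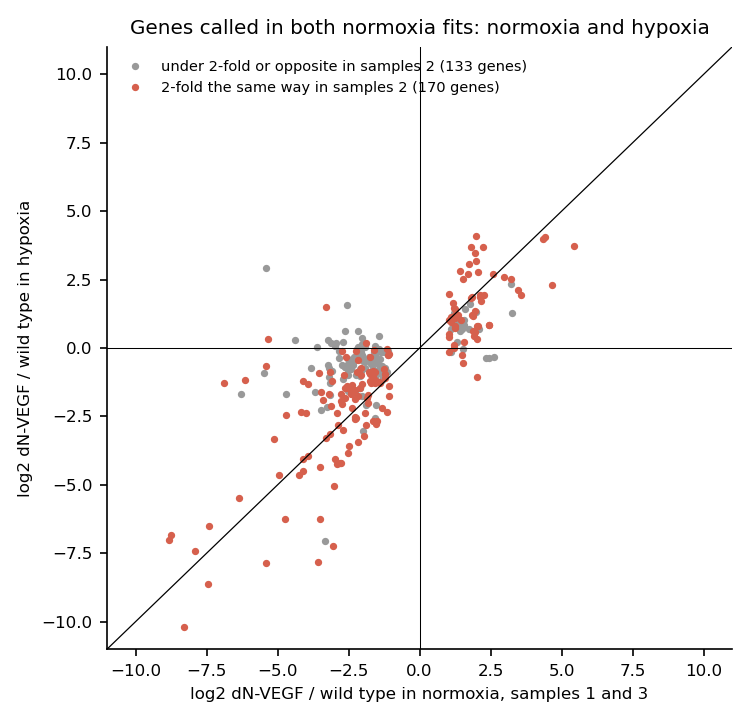
Log2 difference dN-VEGF over wild type of the 303 genes in normoxia, from samples 1 and 3 (x axis), and in hypoxia (y axis), with the diagonal marking equal values. The 170 genes that also differed by 2-fold in the samples numbered 2 (red) lie nearer to the diagonal, and many of the other 133 (grey) lie near 0 in hypoxia.

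The line difference in hypoxia minus that in normoxia (the interaction) passed an edgeR adjusted p of 0.05 in 19 of the 303 genes with all samples, beside 3.36% of all genes, and in 169 without the normoxia samples numbered 2, beside 52.8%. The rule shares the normoxia samples with this contrast, so nothing is read from these counts. Rhox5 remained high in hypoxic dN-VEGF cells, with 56.8 to 63.4 CPM against 3.63 to 4.02 CPM (interaction -0.32, edgeR adjusted p = 0.18). Without the normoxia samples numbered 2 the interaction was -0.37 and passed the threshold (adjusted p = 0.015), a difference slightly smaller in hypoxia. Rcan2 differed more in hypoxia, by 2.81 against 1.65 in normoxia. Col3a1, Atp9a and Sdk2 were the 3 genes called in opposite directions, Atp9a and Sdk2 being named for this reason only. Col3a1 was higher in dN-VEGF in hypoxia, at 1044, 1025 and 1011 CPM against 348, 348 and 341 CPM (log2 1.57, adjusted p = 0.044).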

How the data were processed

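RNA-seq of NIH3T3 and dN-VEGF cells was used, 3 samples per line in normoxia and 3 in hypoxia. Per the study's methods and the submitters' processing notes, the authors prepared unstranded TruSeq v2 libraries, trimmed reads (cutadapt 1.10), aligned them to the mouse genome (TopHat2 2.1.0, Bowtie2 2.2.6) and counted them per gene with HTSeq 0.6.1. The deposited values are raw counts of 54446 genes, with no scaling or filter. Reads shared by overlapping genes are dropped or misassigned by such counting, and intervals cover counting error only.

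Counts were fitted in edgeR 4.0.16 (R 4.3.3): TMM scaling, filterByExpr, 1 mean per group over all 12 samples, quasi-likelihood F test, Benjamini-Hochberg adjustment over all 14724 tested genes. A gene was called at an adjusted p below 0.05 and an absolute log2 difference of at least 1. It held when it was called in the same direction in the fit on 10 samples without the normoxia samples numbered 2. SEs are the log2 difference divided by the square root of F. Log2 CPM used a prior count of 2. The scripts were tested on simulated data. No replicates agreed within sampling noise (chi-square per gene of 4.15 or more, where counting alone gives about 1). Gene positions come from the files and guide positions from GENCODE transcripts of GRCm38, the build of the files.

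Genes named were the 15 largest differences in each direction among genes that held, the 3 largest among those that did not, and the 5 largest among those called only without the samples numbered 2 (mean of at least 5 CPM, no predicted genes), with up to 4 per list and genes the study names. Members called only without the samples numbered 2 are mostly given as counts. Members and lists were chosen with earlier results of these data known. Genes said to be picked after their values were seen fall outside this rule.

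Same-numbered samples of both lines deviated together from their group means (correlations of 0.38, 0.50 and 0.36 for numbers 1, 2 and 3), although samples 1 and 3 correlated across numbers as well (0.35 and 0.36). The pairing comes from the numbers in the labels only. Alternatives were RLE or total-count scaling, other filters, DESeq2 1.42.0, limma 3.58.1 voom with sample quality weights, the normoxia samples alone, a replicate block, and samples left out.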

Additional observations from a re-analysis of the deposited data

Results flagged for a closer look

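The line difference changed between normoxia and hypoxia for several named genes (edgeR interaction on 12 samples, adjusted p below 0.05, which 3.36% of all genes passed; without the normoxia samples numbered 2 it was 52.8%). The value is the hypoxia minus the normoxia log2 difference. Sdk2 and Atp9a were named because they were called in opposite directions, so their values of 8.04 and 4.68 are a description with no test. For Sdk2 this came with all dN-VEGF normoxia samples at 0 counts, so that the fitted size is no bound; a floor of 3 counts over the group puts them at least 4.66-fold lower there. The line difference rose for Fgf21 by 3.98 (adjusted p = 0.043), for Col3a1 by 3.62 (0.023) and for Cnn1 by 2.08 (0.0017). Smaller rises were seen for Ddit3 (1.83, adjusted p = 0.037; this gene overlaps Mars), Vegfa (1.57, adjusted p = 0.028), Nupr1 (1.5, adjusted p = 0.031) and Rcan2 (1.16, adjusted p = 0.019). It fell for Aqp1, with a value of -1.38 (adjusted p = 0.0093). Fgf21, Col3a1, Cnn1, Ddit3, Nupr1 and Rcan2 were named for their normoxia differences. The interaction uses the same normoxia samples, so their adjusted p-values are also a description with no test. Vegfa and Aqp1 were named because the study names them. Vegfa was lower in dN-VEGF in normoxia (-0.96) and stood at 0.61 in hypoxia (edgeR adjusted p = 0.074). Cnn1 was lower in normoxia (-1.14) and at 0.94 in hypoxia (adjusted p = 0.0015). With groups of 3 samples, single outlying samples were not screened for.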

How the results depend on the processing

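The count of 319 genes stayed within 1.5 times under RLE or total-count scaling, no filter and the replicate block on 12 samples (295 genes, 278 of them holding with a block in both fits). It was 196 (133 lower) with at least 10 counts in every normoxia sample, 547 (414 lower) with DESeq2, 1698 (511 higher, 1187 lower) with limma voom sample weights, and 642 (205 higher, 437 lower) without the fold limit. The 6 normoxia samples alone gave 15 (7 higher, 8 lower), and with the replicate block 1 (1 higher, 0 lower). Without the samples numbered 2 it was 1708 (503 higher, 1205 lower), or 1662 (460 higher, 1202 lower) with the 4 others fitted alone. Leaving out 1 normoxia sample gave 109 to 2013 genes (38 to 695 higher, 71 to 1318 lower): 2013 without wild type sample 2, 161 and 157 without wild type 1 and 3, and 109, 320 and 122 without dN-VEGF 1, 2 and 3. The 303 genes that held became 183 with the count minimum, 503 with DESeq2, 1583 with voom weights, 15 with normoxia samples alone, 640 without the fold limit, and 170 when 2-fold was also asked of the samples numbered 2, a limit chosen after seeing the data. Total-count scaling without the samples numbered 2 moved the median of all genes to -0.11.

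Of 61 named genes that held, 0 changed sign under any alternative that could be fitted; 58 of the 59 tested were not called with the block on 6 samples and 44 of 59 without it, and 7 of 61 with the block on 12 (Col3a1, Kirrel3, Itga7, Prune2, Des, Mmp3 and Col15a1). With 1 sample left out, 21 and 22 of the 61 were not called without wild type 1 and 3, 0 without wild type 2, and 28, 16 and 26 without dN-VEGF 1, 2 and 3. Total-count scaling lost 2 and no filter 1. Signs changed for 4 named genes, none of them called with all samples in edgeR. Igf2, at 1.82, turned to -1.59 with voom weights, -1.82 and -1.83 without the samples numbered 2 (10 and 4 samples) and -1.26 without dN-VEGF sample 2 (range with 1 sample left out -1.26 to 2.68). Ccl8, at 3.68, turned to -1.17, -1.31, -1.32 and -1.20 in the same order (-1.20 to 4.26). Ccnb1, at -0.01, turned to 0.03 with total counts, 0.06 with no filter, 1.03 with voom weights, 0.02 with the normoxia samples alone, 0.23 and 0.39 with the replicate block on 12 and 6 samples, 1.07 and 1.06 without the samples numbered 2, 1.08 without wild type sample 2 and 0.02 without dN-VEGF sample 1 (-0.35 to 1.08). Aqp1, at -0.08, turned to 0.00 with no filter and to 0.04 and 0.03 without dN-VEGF samples 1 and 3 (-0.31 to 0.04). Apart from the samples left out and the tests replaced, the cause was not tested.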
